A study of Homo sapiens with 12 samples.

Results

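Succinate dehydrogenase is the enzyme of the tricarboxylic acid cycle that oxidises succinate to fumarate, and as complex II of the respiratory chain it passes the electrons to ubiquinone in the inner mitochondrial membrane. The 8 genes described here are its 4 nuclear-encoded subunits (SDHA, SDHB, SDHC, SDHD) and its 4 dedicated assembly factors (SDHAF1, SDHAF2, SDHAF3, SDHAF4). They were taken by symbol from 60662 gene IDs in RNA count files, and all 8 were also among the 12224 genes of a table of ribosome footprints and translational efficiency. The set was chosen by name but also with its measured RNA and footprint changes in this same comparison known, so the fold changes of the 8 genes are given as a description, with no p-value. The words rose and fell mark a change past an adjusted p of 0.05 in a fit over all genes.

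The cells were HEK293T, an established human embryonic kidney cell line, labelled wild type. The treated arm received 20 µM STM2457, a small-molecule inhibitor of METTL3, the methyltransferase that writes N6-methyladenosine (m6A) into mRNA, in 0.2% DMSO for 6 h. The control arm received 0.2% DMSO alone for 6 h. Extra fetal bovine serum (10%) went into both arms 1 h before the lysis. Cycloheximide, an inhibitor that freezes ribosomes on the mRNA, followed at 100 µg/ml for 3 min. The study asked how translation changes when m6A is depleted. There were 4 poly(A)-selected RNA-seq libraries in each arm. Ribosome profiling (Ribo-seq), which sequences the mRNA fragments that ribosomes protect, here of 26 to 34 nt, was done on 2 libraries in each arm. A single cell line was used, and nothing in the labels says that the replicates were separate cultures, so the spread between them may be technical.

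SDHA carries the flavin cofactor and the succinate-binding site. SDHB carries the iron-sulfur clusters that relay the electrons, and SDHC and SDHD anchor the enzyme in the membrane, where ubiquinone is reduced. SDHAF2 promotes attachment of the flavin to SDHA, and SDHAF4 binds flavinated SDHA before it joins SDHB. SDHAF1 and SDHAF3 belong to the LYR motif proteins and help SDHB to acquire and keep its iron-sulfur clusters. Loss of succinate dehydrogenase lets succinate build up, which inhibits the prolyl hydroxylases that mark hypoxia-inducible factor for destruction.

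RNA-seq libraries held 43291730 to 51645739 counts, and the footprint columns corresponded to 4039314 and 3898620 reads in the STM2457 libraries and 4711513 and 3198063 reads in the DMSO libraries. ERCC spike-in sequences took 0.415% to 0.466% of the counts in STM2457 libraries and 0.389% to 0.408% in DMSO libraries. All 7 genes used as markers of HEK293 cells were detected, of which 5 rose and 1 fell, with a summed level of 603 to 636 CPM (counts scaled to a common library size) with STM2457 and 493 to 517 CPM with DMSO. The part of this shift in the changes below was not tested. The 5 fibroblast markers summed to 19.1 to 20.7 CPM with STM2457 and 18.4 to 22.8 CPM with DMSO. The 5 blood markers summed to 2.76 to 2.89 CPM with STM2457 and 2.54 to 3.09 CPM with DMSO, with HBB at 0. The 5 markers of epithelial carcinoma lines summed to 6.22 to 7.55 CPM with STM2457 and 6.77 to 7.95 CPM with DMSO, with KRT5 and KRT7 at 0. METTL3, the target of the inhibitor, had 83.3 ± 6.72 CPM with STM2457 and 75.7 ± 6.71 CPM with DMSO (SD, n = 4 each). STM2457 acts on the METTL3 protein, so this level does not check the labels.

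SDHAF1 stood apart from the other succinate dehydrogenase genes: its RNA was about 4-fold lower with STM2457. Its footprints, at 4 reads in each STM2457 library, were lower still. A footprint change beyond the RNA change did not pass the threshold. SDHB and SDHAF4 RNA also fell, by less, and SDHAF2 RNA rose slightly, though not with spike-in scaling. SDHA, SDHC, SDHD and SDHAF3 RNA did not pass the threshold with the usual normalization. With spike-in scaling each of them was lower and passed, as did 47.1% of all tested genes in that direction. With the usual normalization, 4 of the 8 genes passed in RNA, 1 higher and 3 lower. Of the 17807 tested genes, 47.8% did (26.2% higher, 21.6% lower). The median log2 fold change was −0.03 over the 8 genes and 0.00 over all tested genes. These are bulk samples, in which fewer cells expressing a gene and less RNA per cell cannot be told apart.

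Among the subunits, SDHA had 21.1, 21.2, 22.1 and 21.8 CPM in STM2457 replicates 1 to 4, against 22.2, 21.6, 22.5 and 20.9 CPM in DMSO replicates 1 to 4. The arms overlapped, with a log2 fold change of −0.02 ± 0.04 (SE). SDHA has near-identical pseudogenes, and 3 of the 15 succinate dehydrogenase pseudogene IDs found in the count files passed the filter on low counts. SDHAP1 had 3.96 ± 0.47 CPM with STM2457 and 3.78 ± 0.58 CPM with DMSO (SD, n = 4 each). SDHAP3 had 17.2 ± 1.23 CPM with STM2457 and 15.2 ± 1.29 CPM with DMSO, and SDHAP4 had 15.4 ± 1.68 CPM with STM2457 and 16.3 ± 0.88 CPM with DMSO. None of the 3 passed the threshold, but the counting may divide reads between SDHA and these copies, so the SDHA level is uncertain. The other 12 pseudogene IDs, copies of SDHA, SDHB, SDHC and SDHD, were under 1 CPM in both arms.

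SDHB fell modestly and without overlap. It had 141, 145, 142 and 148 CPM in STM2457 replicates 1 to 4, against 159, 161, 159 and 156 CPM in DMSO replicates 1 to 4. The highest STM2457 library lay below the lowest DMSO library, and the log2 fold change was −0.14 ± 0.02 (SE), or 9.31% lower in mean CPM.

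The membrane anchors showed no such gap. SDHC had 118, 121, 111 and 118 CPM in STM2457 replicates 1 to 4, against 124, 122, 116 and 117 CPM in DMSO replicates 1 to 4. SDHD had 81.1, 82.8, 81.9 and 81.8 CPM in STM2457 replicates 1 to 4, against 79.7, 81.2, 81.4 and 80.7 CPM in DMSO replicates 1 to 4. Both genes overlapped between the arms, with log2 fold changes of −0.03 ± 0.03 for SDHC and 0.02 ± 0.02 for SDHD (SE).

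Of the assembly factors, SDHAF1 had 5.16, 4.62, 4.75 and 5.36 CPM in STM2457 replicates 1 to 4, against 19.3, 20.9, 21.6 and 20.9 CPM in DMSO replicates 1 to 4. In raw counts these were 254, 220, 202 and 250 with STM2457 and 1010, 1042, 1019 and 1074 with DMSO. Every STM2457 library was far below every DMSO library, and the spread within an arm was small beside the gap between them. The log2 fold change was −2.05 ± 0.06 (SE), or 75.9% lower in mean CPM, and SDHAF1 ranked 46 from the lowest of 17807 tested genes.

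SDHAF4, which like SDHAF2 acts on SDHA, fell by less. It had 5.32, 5.42, 5.24 and 5.88 CPM in STM2457 replicates 1 to 4, against 6.35, 6.91, 7.24 and 7.36 CPM in DMSO replicates 1 to 4. The arms did not overlap, and the log2 fold change was −0.35 ± 0.07 (SE).

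SDHAF2 had 7.80, 8.01, 8.22 and 8.86 CPM in STM2457 replicates 1 to 4, against 7.13, 7.30, 7.03 and 7.46 CPM in DMSO replicates 1 to 4. It rose by 0.19 ± 0.06 (SE) on the log2 scale, with no overlap between the arms, but the call was lost in 8 of 15 other settings, among them DESeq2 (0.17) and the fits that left out DMSO replicate 1 (0.18), DMSO replicate 3 (0.17) or STM2457 replicate 4 (0.15). SDHAF3 had 30.3, 29.4, 34.1 and 29.7 CPM in STM2457 replicates 1 to 4, against 31.5, 30.8, 31.1 and 30.4 CPM in DMSO replicates 1 to 4. Its arms overlapped, with STM2457 replicate 3 above all the others, and its log2 fold change was −0.00 ± 0.05 (SE). In all, 4 of the 8 genes did not overlap between the arms in CPM, 3 lower and 1 higher, beside 44.7% of all tested genes (19.8% lower, 24.9% higher).

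**Figure D1:**
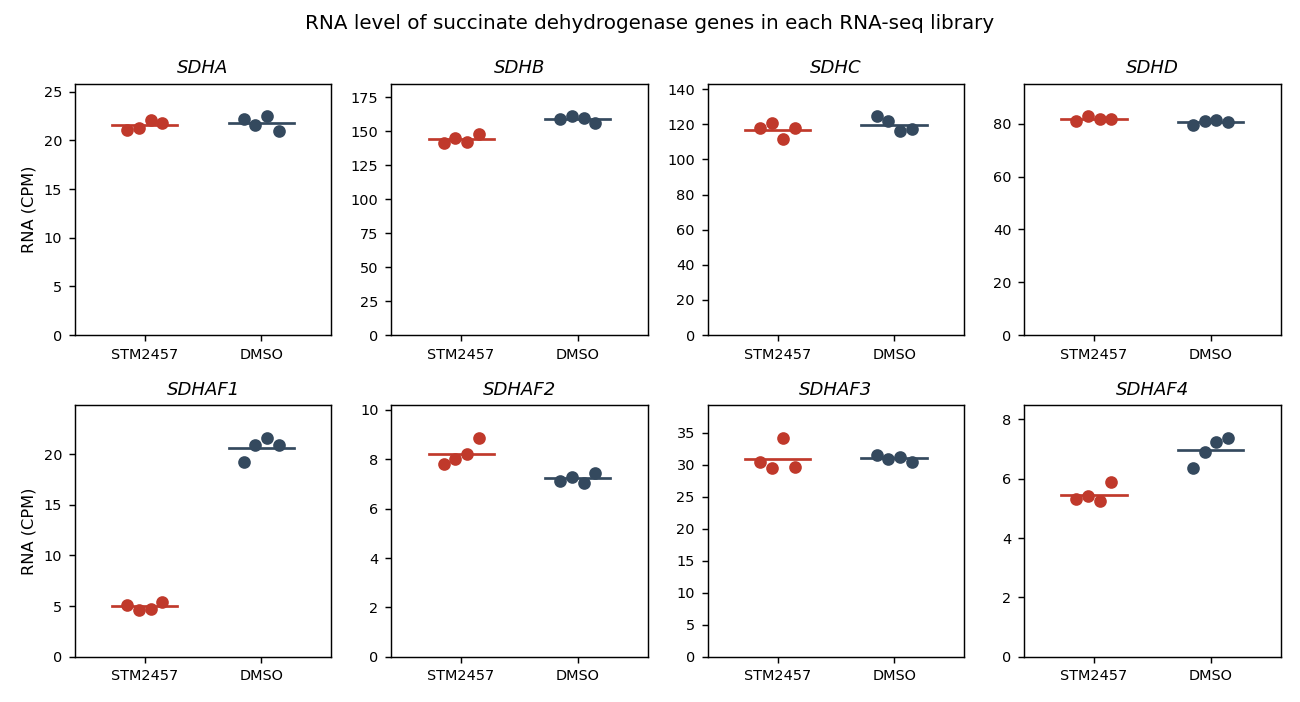
RNA level in CPM (vertical axes, each starting at 0) of the 8 genes in each RNA-seq library, with 4 STM2457 libraries left and 4 DMSO libraries right, points in replicate order and a line at the arm's mean. SDHAF1 lies at 4.62 to 5.36 CPM with STM2457 and 19.3 to 21.6 CPM with DMSO, and the log2 fold changes of the other 7 genes lie between −0.35 and 0.19.

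With scaling to the ERCC sequences instead of the usual normalization on the bulk of genes, the median over all genes moved to −0.19, and 59.2% of genes passed the threshold (12.1% higher, 47.1% lower). Of the 8 genes, 7 were then lower and 0 higher, with a median of −0.22. SDHAF2 was the exception, at −0.01, and SDHD and SDHAF2 changed sign. SDHAF1 was at −2.25.

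**Figure D2:**
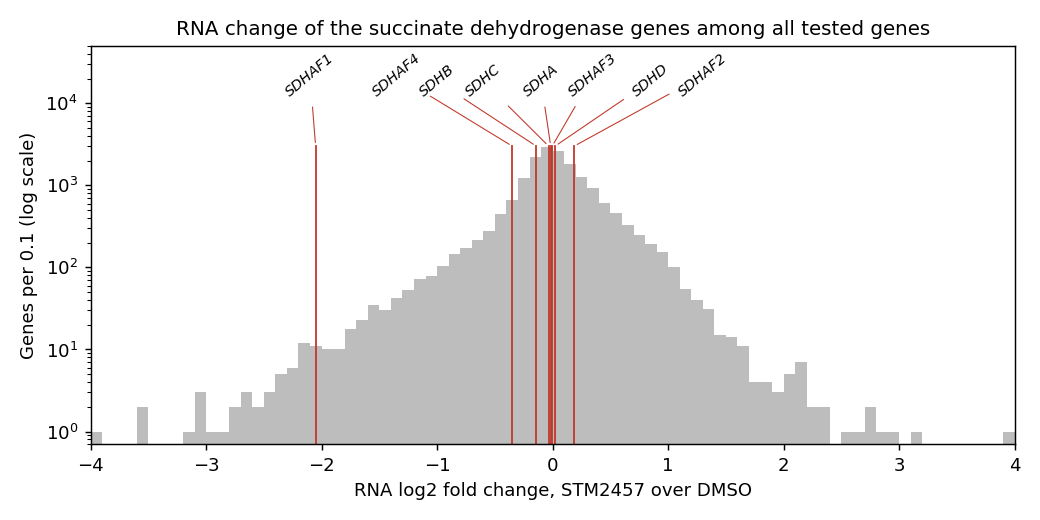
Number of genes (vertical axis, log scale) per 0.1 of RNA log2 fold change, STM2457 over DMSO, for the 17807 tested genes, with the 8 succinate dehydrogenase genes marked in red and values beyond the axis gathered in the end bars. SDHAF1 lies at −2.05 in the lower tail, and the other 7 lie between −0.35 and 0.19, in the body of the distribution.

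The upstream sequences of the 3 genes whose RNA fell are shown because these genes changed by such different amounts. Each is the 250 bases before the annotated start of the gene, from RefSeq on GRCh38.p14, written 5′ to 3′ on the gene's strand. No other gene was annotated within 1 kb of any of the 3. Capitals mark a match to CCGGAAG, a core site of ETS family factors, or to the paired half-site of the factor NRF1 (nuclear respiratory factor 1), which is GCGC, any 2 bases and GCGC again, on either strand.
SDHAF1, chr19:35994938-35995187, plus strand: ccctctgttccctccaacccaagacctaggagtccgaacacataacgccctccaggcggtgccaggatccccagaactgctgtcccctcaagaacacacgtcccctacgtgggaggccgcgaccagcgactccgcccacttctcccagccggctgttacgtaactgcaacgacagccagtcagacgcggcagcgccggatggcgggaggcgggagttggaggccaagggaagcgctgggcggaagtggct
SDHAF4, chr6:70566680-70566929, plus strand: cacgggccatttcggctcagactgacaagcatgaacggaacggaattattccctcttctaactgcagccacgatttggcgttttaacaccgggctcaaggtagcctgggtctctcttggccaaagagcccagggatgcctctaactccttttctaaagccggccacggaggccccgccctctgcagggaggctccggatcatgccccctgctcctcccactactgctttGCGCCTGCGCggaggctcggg
SDHB, chr1:17054033-17054282, minus strand: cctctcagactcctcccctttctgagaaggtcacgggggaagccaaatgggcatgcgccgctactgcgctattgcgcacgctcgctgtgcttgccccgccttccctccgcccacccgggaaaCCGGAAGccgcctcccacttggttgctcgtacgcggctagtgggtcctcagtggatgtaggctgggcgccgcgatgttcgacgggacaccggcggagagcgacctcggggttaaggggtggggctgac

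The SDHAF1 window held neither motif, SDHAF4 held 1 NRF1 pair, and SDHB held 1 copy of CCGGAAG. Promoter windows were on hand for 7 of the 8 genes, all but SDHC. The NRF1 pair occurred in 4 of the 7 (SDHA with 4 copies, SDHD, SDHAF3 and SDHAF4 with 1 each), and in 7.16% of all 35116 promoter windows of that length. CCGGAAG occurred in 4 of the 7 (SDHAF2 with 4 copies, SDHB, SDHD and SDHAF3 with 1 each), and in 8.52% of all windows. TGACGTCA, the cyclic AMP response element, occurred in 0 of the 7 and in 1.65% of all windows. Both strands were searched, and the motifs do not overlap in these windows. GC content was 65.2% upstream of SDHAF1, 60.0% upstream of SDHAF4 and 66.4% upstream of SDHB, beside a median of 58.0% over all windows. Upstream of SDHA it was 75.2%, of SDHD 62.8%, of SDHAF2 76.4% and of SDHAF3 64.8%. The motif shares were not compared at like GC content. A match describes letters and is no evidence of binding.

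Of the protein-coding genes within 1 kb of a succinate dehydrogenase gene, 2 rose and 1 fell. CCDC127 lies within 1 kb of SDHA, and its RNA rose by 1.18 ± 0.03 (SE) on the log2 scale, with 64.6 ± 2.0 CPM with STM2457 and 28.5 ± 0.40 CPM with DMSO (SD, n = 4 each). Its footprints rose as well, by 1.32, whereas SDHA RNA was at −0.02. TIMM8B, an import chaperone of the mitochondrial intermembrane space within 1 kb of SDHD, fell by 0.34 ± 0.03 (SE), with 57.3 ± 0.68 CPM with STM2457 and 72.6 ± 1.5 CPM with DMSO, whereas SDHD was at 0.02. CPSF7, a subunit of a pre-mRNA cleavage factor within 1 kb of SDHAF2, rose by 0.10 ± 0.03 (SE), with 184 ± 5.54 CPM with STM2457 and 171 ± 3.68 CPM with DMSO, but with ERCC scaling it was at −0.09 and did not pass. The adjusted p of edgeR's quasi-likelihood test was 4.4e-11 for CCDC127, 4.2e-07 for TIMM8B and 0.0074 for CPSF7, and the difference between each pair of neighbours was not tested. PDCD6-DT, a noncoding RNA within 1 kb of SDHA, had 0.39 ± 0.06 CPM with STM2457 and 0.37 ± 0.03 CPM with DMSO and did not pass the threshold.

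Ribosome footprints were then compared in 2 libraries per arm. The values are the authors' normalized signal, in which 1 read was worth 3.80 and 3.90 in the STM2457 libraries and 3.22 and 4.82 in the DMSO libraries. A mean of at least 10 reads per library over both arms was required, and 6 of the 8 genes passed. SDHAF1, with a mean of 17.75, passed only through its DMSO libraries (44 and 19 reads), with 4 reads in each STM2457 library. Its footprint call, rank and efficiency rest on that 1-sided pass and are a description. Of the 6 genes, 2 fell (SDHAF1 and SDHA) and 0 rose, where 15.7% of 10906 kept genes passed the threshold (9.59% higher, 6.13% lower). The median log2 fold change was −0.27 over the 6 genes and −0.02 over all kept genes. All folds of footprints are on the log2(signal + 1) scale.

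SDHAF1 gave 4 and 4 footprint reads in STM2457 replicates 1 and 2, against 44 and 19 reads in DMSO replicates 1 and 2. As normalized signal these were 15.2 and 15.6 with STM2457, against 142 and 91.6 with DMSO. The arms were far apart, although the DMSO libraries differed from each other. The log2 fold change was −2.81 ± 0.54 (SE), the rank was 7 from the lowest of 10906 genes, and the ratio of the summed reads per depth, 8 against 63, was 0.127 with a 95% exact interval of 0.0524 to 0.265. Such intervals cover counting error only.

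SDHA gave a footprint signal of 699 and 660 in STM2457 replicates 1 and 2, against 995 and 824 in DMSO replicates 1 and 2. The arms did not overlap, and SDHA fell by 0.41 ± 0.15 (SE) on the log2 scale, while its RNA log2 fold change was −0.02 in the deposited counts and −0.13 in the RNA columns of the same table. The call was lost in fits without DMSO replicate 1 (−0.28), STM2457 replicate 1 (−0.46) or STM2457 replicate 2 (−0.37), which leave 1 library in an arm and assume that it varies like the others. How many of these footprints come from the pseudogenes was not tested.

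SDHB gave a signal of 2845 and 2936 with STM2457, against 3058 and 3282 with DMSO. SDHAF4 gave 144 and 121 with STM2457, against 222 and 183 with DMSO. Neither gene overlapped between the arms and neither passed the threshold, with log2 fold changes of −0.13 ± 0.10 for SDHB and −0.61 ± 0.29 for SDHAF4 (SE). For SDHAF4 the ratio of reads per depth, 69 against 107, was 0.643 with a 95% exact interval of 0.468 to 0.878.

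SDHC gave 1945 and 2358 with STM2457, against 1970 and 2497 with DMSO. SDHAF3 gave 509 and 484 with STM2457, against 441 and 482 with DMSO. SDHC overlapped between the arms and SDHAF3 did not, by a narrow margin, and the log2 fold changes were −0.05 ± 0.11 for SDHC and 0.11 ± 0.18 for SDHAF3 (SE). Among the 6 genes, 5 did not overlap between the arms, 4 lower and 1 higher, beside 54.0% of all kept genes (28.4% lower, 25.7% higher).

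The remaining genes, SDHD and SDHAF2, had a mean of fewer than 10 footprint reads per library and were not tested. SDHD gave 10 and 4 reads with STM2457, against 9 and 8 reads with DMSO, and the ratio per depth was 0.821 (95% exact interval 0.374 to 1.77). SDHAF2 gave 1 and 6 reads with STM2457, against 8 and 8 reads with DMSO, with a ratio of 0.436 (0.152 to 1.12). Both intervals include equality, so with so few reads neither a difference nor its absence was shown. Why these genes had few footprint reads was not tested.

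**Figure D3:**
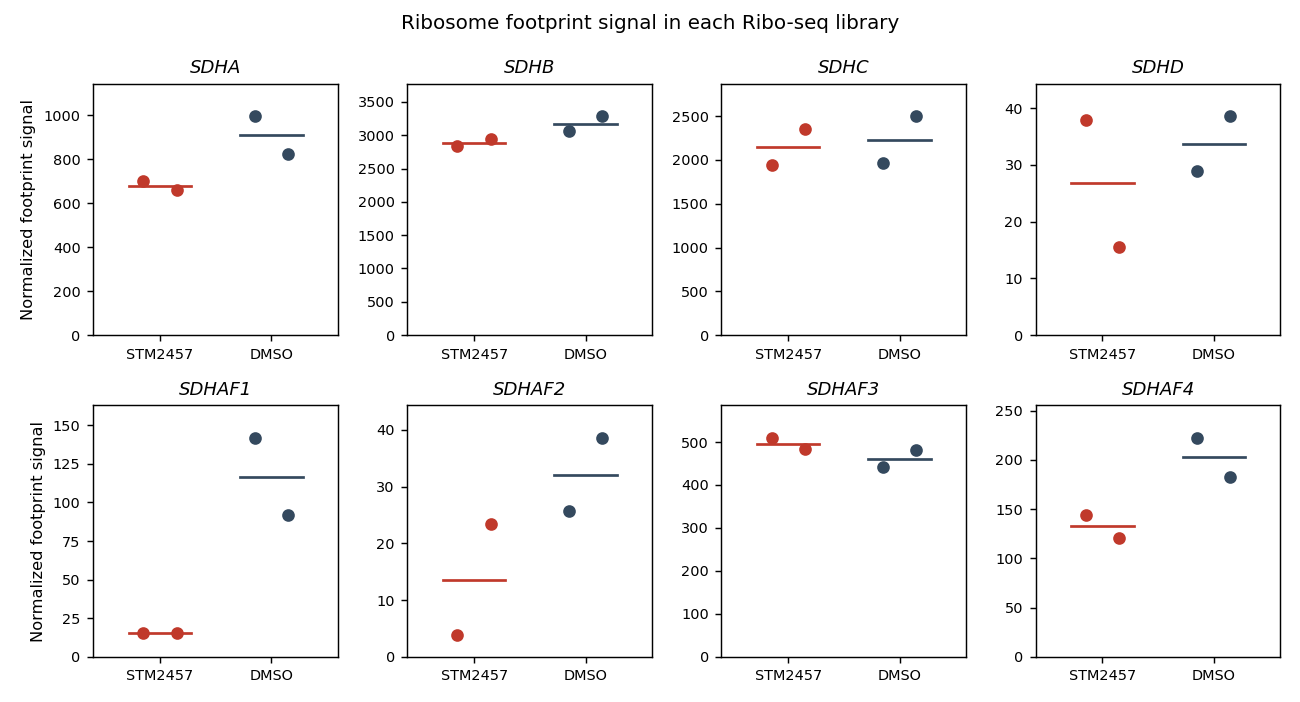
Normalized ribosome footprint signal (vertical axes, each starting at 0) of the 8 genes in each Ribo-seq library, with 2 STM2457 libraries left, 2 DMSO libraries right and a line at the arm's mean. SDHAF1 lies at 15.2 and 15.6 with STM2457 and 142 and 91.6 with DMSO, and SDHC overlaps between the arms.

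Translational efficiency is the footprint signal over the RNA signal of the same table. A change of efficiency is a footprint change beyond the RNA change, tested in 1 model over the RNA-seq and Ribo-seq columns. With limma and a weight per assay, 0 of the 6 genes passed the threshold, where 1.04% of the 10906 genes did (0.229% higher, 0.807% lower). With 1 spread shared by both assays, which called 7.56% of genes (3.11% higher, 4.46% lower), 0 of the 6 passed. An edgeR interaction took the deposited RNA counts in place of the RNA columns, beside the footprint reads. It called 3.9% of genes (1.14% higher, 2.76% lower), and 0 of the 6 passed. The median log2 change of efficiency was −0.09 over the 6 genes and 0.01 over all kept genes.

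Dividing each footprint library by the RNA-seq library of the same number gave an SDHAF1 efficiency of 0.641 and 0.806 with STM2457, against 2.29 and 1.05 with DMSO. The DMSO values were far apart. Equal numbers do not show a shared culture, and over all 8 ratios of a Ribo-seq and an RNA-seq library of an arm the arms overlapped, at 0.641 to 0.960 with STM2457 and 0.889 to 2.29 with DMSO. The fitted log2 change was −0.79 ± 0.59 (SE). SDHA had an efficiency of 0.573 and 0.534 with STM2457, against 0.692 and 0.613 with DMSO, with a log2 change of −0.28 ± 0.14 (SE). Over all 8 ratios of an arm its arms did not overlap, by a narrow margin, at 0.512 to 0.573 with STM2457 and 0.574 to 0.748 with DMSO. Each of the other succinate dehydrogenase genes overlapped between the arms in that comparison. For SDHAF4 the log2 change was −0.25 ± 0.37, for SDHB 0.08 ± 0.10, for SDHC 0.07 ± 0.16 and for SDHAF3 0.17 ± 0.16 (SE). The standard errors were as large as the change for SDHB, SDHC and SDHAF4. In the authors' deposited table, the log2 change of efficiency was −0.90 for SDHAF1, −0.27 for SDHA and −0.23 for SDHAF4.

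**Figure D4:**
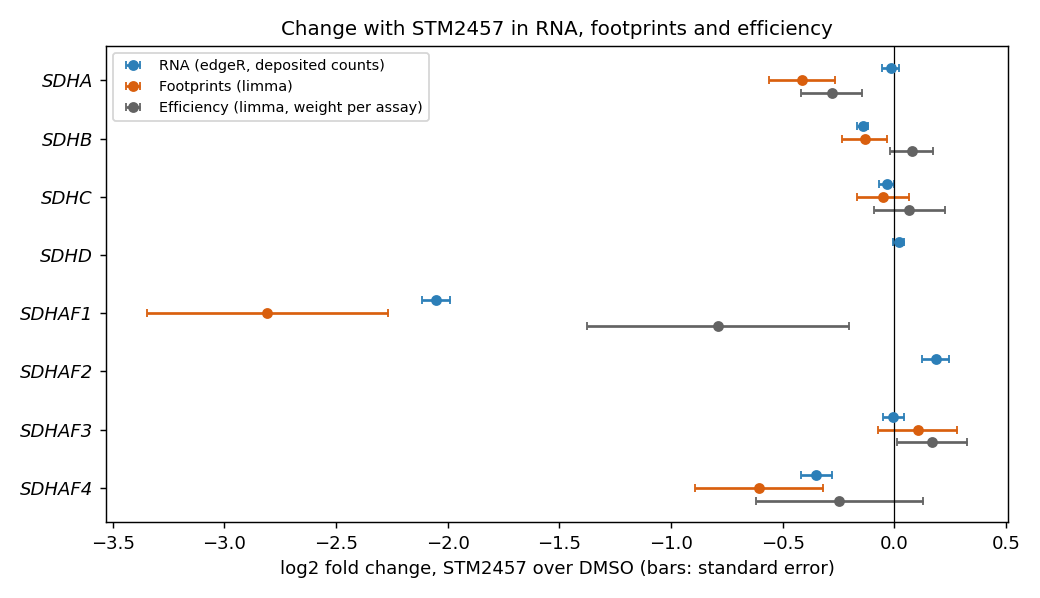
Log2 fold change, STM2457 over DMSO (horizontal axis), of RNA, footprints and efficiency for each gene, with bars of 1 standard error. SDHAF1 is at −2.05 in RNA, −2.81 in footprints and −0.79 in efficiency with a wide bar, and SDHD and SDHAF2 have an RNA value only because their footprints were too few.

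The efficiencies themselves differed widely among the 8 genes within each arm. In the DMSO libraries SDHD had the lowest, at 0.109 and 0.135, followed by SDHA at 0.613 and 0.692, SDHB at 0.787 and 0.842, and SDHAF3 at 0.866 and 0.948. These 4 genes did not overlap with one another, although over all 8 ratios of the arm SDHB reached 0.8662 and SDHAF3 began at 0.8658. Above them came SDHAF1 at 2.29 and 1.05, SDHC at 1.76 and 2.21, SDHAF2 at 1.64 and 2.99 and SDHAF4 at 3.95 and 2.60. Each of these overlapped with its neighbour in that order. Over all 8 ratios of the arm SDHAF1 (0.889 to 2.29) also overlapped with SDHAF3 (0.866 to 0.963).

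With STM2457 the lowest was again SDHD, at 0.133 and 0.0659. SDHA followed at 0.573 and 0.534, then SDHAF1 at 0.641 and 0.806, SDHB at 0.879 and 0.876 and SDHAF3 at 1.09 and 1.02. SDHC at 1.94 and 2.22 and SDHAF4 at 3.07 and 2.26 were highest, and SDHAF2, on 1 and 6 reads, ranged over most of the order at 0.297 and 2.62. Over all 8 ratios of the arm SDHAF1 (0.641 to 0.960) overlapped with SDHB (0.828 to 0.908) and SDHAF3 (0.938 to 1.09). In the authors' deposited table, efficiency without STM2457 was 0.125 for SDHD, at the 1.33 percentile of the 12224 genes, and 3.04 for SDHAF4, at the 98.4 percentile, with a median of 1.01 over all genes.

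These efficiencies depend on which reads the table counts. The median gene of the table had RNA reads amounting to 62.3% of its deposited counts. The share was 249% for SDHA, 97.8% for SDHB, 65.9% for SDHAF3, 39.8% for SDHAF4, 36.9% for SDHC, 16.8% for SDHAF1, 13.6% for SDHD and 7.04% for SDHAF2. Only 309 of 12190 genes, 2.53%, exceeded 100%. The regions counted for the table are not given in the sources used here, so the order of efficiencies among these genes holds for the table's own counting.

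The RNA columns of the table gave the same picture for SDHAF1 and more calls among the other genes. SDHAF1 had an RNA signal of 23.7, 19.4, 16.3 and 21.5 in STM2457 replicates 1 to 4, against 61.9, 86.9, 91.2 and 103 in DMSO replicates 1 to 4. Every STM2457 value was below every DMSO value, with a limma log2 fold change of −2.02 ± 0.16 (SE). Of the 6 genes kept, 5 fell and 0 rose, where 62.0% of kept genes passed the threshold (27.4% higher, 34.6% lower). SDHA (−0.13) and SDHC (−0.12) fell in the table but not in the deposited counts, SDHB (−0.21) and SDHAF4 (−0.36) fell in both, and SDHAF3 (−0.06) passed in neither. The median over all kept genes was −0.04.

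The genes whose profile over the 12 libraries was most like that of SDHAF1 were sought among 10302 genes, by the smallest Euclidean distance between log2 profiles centred on the DMSO mean of each assay. They were HNRNPLL, at a distance of 0.668, ATXN7L3B at 0.808, PCNX4 at 1.31, CHML at 1.49 and SMIM10 at 1.75, with a median of 5.73 over all genes compared. Their RNA log2 fold changes were −2.04 for HNRNPLL, −1.88 for ATXN7L3B, −1.41 for PCNX4, −1.64 for CHML and −1.95 for SMIM10. Their footprint log2 fold changes were −2.96 for HNRNPLL, −3.03 for ATXN7L3B, −2.82 for PCNX4, −2.45 for CHML and −1.70 for SMIM10. All 5 were lower with STM2457 in both assays, as SDHAF1 was, and since the likeness was measured on the same libraries it is a description of them.

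In pathways that feed, build or depend on succinate dehydrogenase, the RNA log2 fold changes lay between −0.60 and 1.14. Over the 8 pathway lists, 52 of 103 tested genes passed the threshold in RNA, or 50.5% (20.4% higher, 30.1% lower), near the 47.8% of all tested genes. With ERCC scaling 86 of the 103 passed, or 83.5% (10.7% higher, 72.8% lower), beside 59.2% of all genes. In footprints 15 of 100 kept genes passed, or 15.0% (6.0% higher, 9.0% lower), near 15.7% of all kept genes (9.59% higher, 6.13% lower). The counts of each list stand beside shares over all genes of 26.2% higher and 21.6% lower, and of 12.1% higher and 47.1% lower with ERCC scaling, and no list was tested against them. Of the 18 other enzymes of the tricarboxylic acid cycle, 1 rose and 5 fell (median −0.04 on the log2 scale), and with ERCC scaling 0 rose and 16 fell. MDH2, mitochondrial malate dehydrogenase, rose by 0.09 (−0.11 with ERCC scaling, not passing), and the largest fall was that of DLD, the lipoamide dehydrogenase shared by several oxidative complexes, with 132 ± 5.34 CPM with STM2457 and 158 ± 5.45 CPM with DMSO (log2 −0.26). In footprints 0 rose and 2 fell, DLD (−0.41) and IDH3G (−0.32), a subunit of isocitrate dehydrogenase.

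SDHAF1 and SDHAF3 belong to the LYR motif family. Of its 9 other genes, 0 rose and 3 fell in RNA, with a median of −0.04 and a range of −0.27 to 0.10, and with ERCC scaling 0 rose and 8 fell. The largest fall was that of LYRM2, with 70.9 ± 2.01 CPM with STM2457 and 85.6 ± 2.45 CPM with DMSO (log2 −0.27). LYRM7, which assists complex III, fell by 0.20 in RNA and by 0.59 in footprints.

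Of the 15 genes of iron-sulfur cluster assembly, 3 rose and 1 fell in RNA, with a median of 0.03, and with ERCC scaling 1 rose and 10 fell. IBA57, a late-acting factor for clusters of the larger type, rose to 93.3 ± 5.83 CPM with STM2457, against 73.7 ± 4.72 CPM with DMSO (log2 0.34), and NFU1, a cluster carrier, fell by 0.22. In footprints 0 of the 14 kept genes rose or fell.

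Of the flavin supply genes, 4 of 6 were tested, 2 rose and 1 fell in RNA (median 0.05), and with ERCC scaling 1 rose and 1 fell. FLAD1, which makes flavin adenine dinucleotide, rose to 119 ± 4.95 CPM with STM2457, against 83.2 ± 1.62 CPM with DMSO (log2 0.51), and by 0.59 in footprints. RFK, the riboflavin kinase of the preceding step, fell by 0.19 in RNA.

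A list of 8 genes held other enzymes that reduce ubiquinone and the electron transfer flavoprotein. Of 7 tested, 1 rose and 2 fell in RNA (median −0.10), and with ERCC scaling 0 rose and 6 fell. DHODH, of pyrimidine synthesis, rose by 0.21, but was at 0.02 with ERCC scaling and did not pass. CHDH, choline dehydrogenase, fell to 24.6 ± 0.51 CPM with STM2457, against 32.9 ± 1.24 CPM with DMSO (log2 −0.42), and by 0.78 in footprints, where ETFB, a subunit of the electron transfer flavoprotein, fell by 0.33. Of 13 genes of coenzyme Q synthesis, 1 rose (COQ8A, 0.26) and 6 fell in RNA, the most COQ5, a methyltransferase of the pathway (−0.30), with a median of −0.08, and with ERCC scaling 0 rose and 11 fell. COQ5 (−0.45) and COQ9 (−0.40) fell in footprints.

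Assembly factors of complexes III to V moved in both directions. Of 29, 9 rose and 11 fell in RNA, with a median of −0.06, and with ERCC scaling 5 rose and 19 fell. SCO2, a copper chaperone of cytochrome c oxidase, rose to 62.0 ± 3.64 CPM with STM2457, against 28.1 ± 1.49 CPM with DMSO (log2 1.14), and by 1.16 in footprints. COA3, an early assembly factor of the same enzyme, fell to 51.2 ± 1.71 CPM with STM2457, against 77.8 ± 2.10 CPM with DMSO (log2 −0.60), and by 0.64 in footprints. In footprints 4 of the 29 rose and 2 fell.

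Of 8 genes of oxygen sensing, the prolyl hydroxylases and the hypoxia-inducible factor, 4 rose and 2 fell in RNA (median 0.22), and with ERCC scaling 4 rose and 4 fell. EGLN1, the main oxygen-sensing prolyl hydroxylase, rose to 27.1 ± 2.46 CPM with STM2457, against 16.6 ± 1.33 CPM with DMSO (log2 0.71). EPAS1, an alpha subunit of the factor, fell by 0.17. VHL, which recognises the hydroxylated factor, rose by 0.53 in footprints.

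For efficiency, 0 of the genes in any of the 8 lists passed the threshold with limma and a weight per assay, 3 did with a shared spread and 1 with the edgeR interaction.

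**Figure D5:**
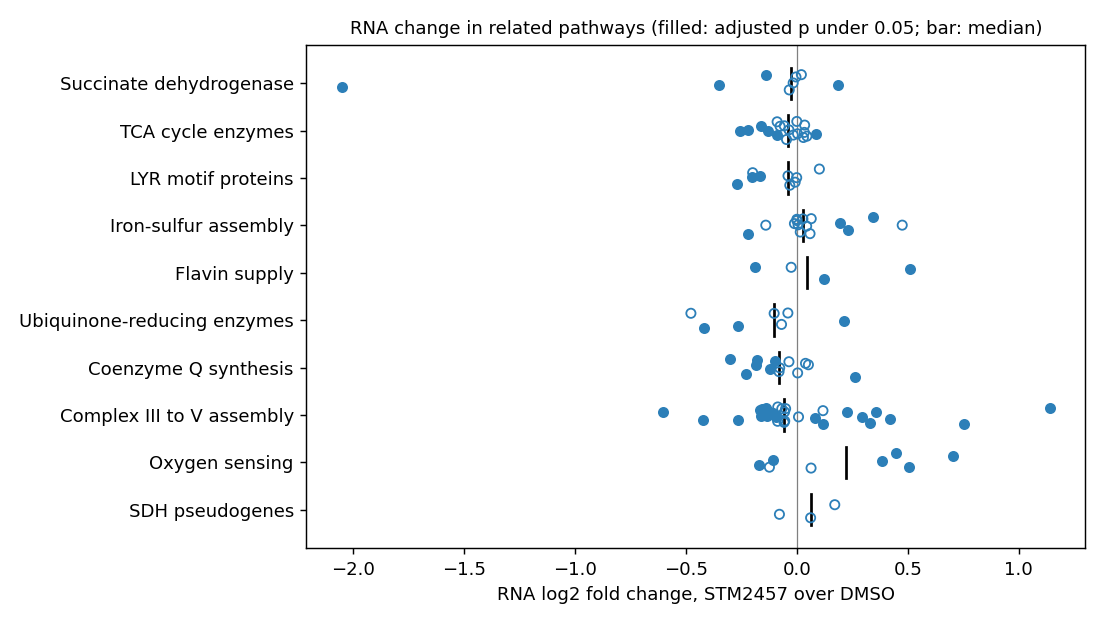
RNA log2 fold change, STM2457 over DMSO (horizontal axis), of each tested gene in succinate dehydrogenase, 8 related pathways and the pseudogenes, with filled points past an adjusted p of 0.05 and a bar at each median. SDHAF1 at −2.05 lies below every gene of the other lists, and SCO2 at 1.14 above them.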

How the data were processed

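RNA was measured in 8 RNA-seq libraries and footprints in 4 Ribo-seq libraries. Raw counts per gene were deposited for RNA-seq. The tools, per the submitters' processing notes and in no stated order, were STAR 2.7.3a, SAMtools 1.10, Subread 2.0.3, FastQC 0.11.9, featureCounts, UMI-tools 1.1.2, DESeq2 and bedtools 2.29.2. The build was GRCh38.p12. The counting's use of strand and of reads matching several genes is not given in the sources used here. The authors' table holds a normalized signal per library, the ratio of mean footprint to mean RNA signal per arm, and the log2 change of that ratio. Its RNA means equal replicates 1 to 3 in all 12224 genes. All footprint values were whole multiples of 1 read, within a tolerance of 0.1 read.

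The RNA test was the quasi-likelihood test of edgeR 4.0.16, run in R 4.3.3 after TMM and filterByExpr, with spike-ins left out. Footprints and efficiency were tested with limma 3.58.1 on log2(signal + 1), for genes with a mean of at least 10 footprint reads. P-values were adjusted by Benjamini-Hochberg over all kept genes, and CPM used TMM factors. Standard errors of edgeR folds are the fold over the square root of F. Symbols were matched for 60306 of 60662 IDs. The 8 genes, pathway lists and tests were chosen with earlier results of these data known, the filter and promoter motifs included. Genes named were the 8, METTL3, expressed pseudogenes, neighbours within 1 kb, the 5 most alike to SDHAF1 and, per list, the largest rise and fall. Genes named for footprints, and LYRM7, were chosen after their values were seen. Alternatives were DESeq2 1.42.0, other scalings, filters, pseudocounts and tests, a replicate block and leaving out libraries.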

Additional observations from a re-analysis of the deposited data

Results flagged for a closer look

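For SDHAF4, the RNA signal of the series table was 56.2 in DMSO replicate 1, whereas the other 3 DMSO libraries lay at 70.5 to 73.3. The gap was 0.839 of the range of the 4 libraries, above the critical value for a single distant sample. In the deposited counts the same library had 6.35 CPM, against 6.91 to 7.36 CPM in the other 3. The rule was applied to 32 groups of 4 libraries and picked out 1, and chance alone picks out about 1 in 20 groups.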

How the results depend on the processing

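SDHAF1, SDHB and SDHAF4 kept their direction and their call in RNA under all 15 alternatives, and SDHAF1 in footprints under all 9 that kept it. These refits used the same libraries whose changes were known when the genes were chosen. They describe the dependence on settings and are no further evidence of a change. Without 1 library at a time SDHAF1 ranged from −2.09 to −2.02 in RNA, −3.12 to −2.50 in footprints and −1.10 to −0.48 in efficiency. ERCC scaling raised the 4 succinate dehydrogenase genes called in RNA to 7 and the 52 genes called in the pathway and pseudogene lists to 87, and turned SDHD to −0.18 and SDHAF2 to −0.013. Near 0, signs changed elsewhere too: SDHAF3 RNA ranged from −0.054 to 0.019 without 1 library, SDHA RNA was 0.017 and SDHAF3 RNA 0.050 with replicates 3 and 4 only, and without 1 Ribo-seq library SDHC ranged from −0.22 to 0.12 in footprints and from −0.10 to 0.24 in efficiency. Of the 2 genes called in footprints 1 was left with a filter of 50 reads, which removes SDHAF1, and 1 to 2 without 1 library, where an arm of 1 library is assumed to vary like the others. Genes called without 1 library numbered 7790 to 8647 in RNA (8511 with all), 1004 to 1464 in footprints (1715 with all; the lowest without DMSO replicate 2) and 37 to 100 in efficiency (113 with all; 49 and 37 without DMSO replicate 1 or 2, and 45 without STM2457 replicate 2). For efficiency, a shared spread called 825 genes and the edgeR interaction 425, and no alternative called a succinate dehydrogenase gene. The cause of these differences was not tested. The labels give no pairing, and the replicate numbers were not taken to pair the samples, since r between same-numbered deviations was 0.08 to 0.23 in RNA-seq, not over 0.1 in every pair, and 0.01 in Ribo-seq. The RNA-seq deviations did share structure: r was 0.08 to 0.27 in the 8 pairs with both libraries among replicates 1 and 2 or both among 3 and 4, and −0.26 to −0.08 in the other 8. Within replicates 1 and 2 SDHAF1 RNA was at −2.05, SDHB at −0.17 and SDHAF4 at −0.32, and within 3 and 4 at −2.07, −0.12 and −0.39, all called. With the replicate block 9542 genes were called in RNA, 62 of them in those lists, 1719 in footprints and 131 in efficiency. Small numbers of footprint reads limit SDHAF1, SDHAF2, SDHD and SDHAF4. Levels per transcript length and a comparison with intronless genes were not run.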
